A study of Mus musculus with 36 samples.

Results

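The transcripts of 10 genes of mitochondrial gene control and mitochondrial shape were followed in liver and quadriceps muscle after partial hepatectomy: the coactivators Ppargc1a and Ppargc1b, the nuclear receptors Esrra, Esrrb and Esrrg, the transcription factors Tfam and Nrf1, and the fusion proteins Mfn1, Mfn2 and Opa1. They were chosen by gene symbol, and 10 of the 14702 genes of the deposited count table carry these symbols. The rule used symbols and no measured value, but earlier results of these data were known when the genes were chosen. Total RNA was sequenced from adult male C57BL6/J mice of 12 to 14 weeks, 1, 3 and 7 days after 70% of the liver had been removed (partial hepatectomy, PHx), with 5 libraries per day and tissue. It was also sequenced after sham laparotomy, in which the abdomen is opened without resection, with 3 libraries per tissue. The labels name no engineered allele. The day on which the sham mice were sampled is not given in the sources used here, and the treatment label reads day 3 for every library, so days were taken from the sample titles. The series title links hepatic Yap1 to catabolism and to loss of muscle. The comparisons set each day after PHx against sham in the regrowing liver and in a muscle that was not operated on.

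PGC-1 alpha, the protein of Ppargc1a, and its relative PGC-1 beta bind nuclear receptors and other transcription factors and recruit the machinery that turns on genes of respiration, fatty acid oxidation and, in the fasted liver, glucose production. The oestrogen-related receptors (ERRs) are their main partners on genes of the respiratory chain, and NRF1 drives nuclear genes of mitochondria, among them Tfam, whose protein packs and transcribes mitochondrial DNA. Mitofusins join outer mitochondrial membranes, and OPA1 joins inner membranes and shapes cristae. In muscle, Ppargc1a is known for its rise after exercise and its link to oxidative fibres.

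The liver libraries held 12464547 to 28862458 counts each, and those of quadriceps 15506197 to 29623890. Values per library are CPM (counts per unit of library size, scaled by the trimmed mean of M values within each tissue). A gene "rose" or "fell" where edgeR's quasi-likelihood test over all genes of the tissue gave an adjusted p under 0.05. Log2 fold changes carry their SE. The tissues matched their labels: the summed CPM of 10 hepatocyte markers was 104649 or more in every liver library and at most 303 in every quadriceps library. The sums of 14 muscle-fibre markers were at most 2066 in liver and 170653 or more in quadriceps. Muscle markers within liver ran with the groups, at 866 to 1451 CPM in sham livers, 82.7 to 2066 at day 1, 41.7 to 202 at day 3 and 23.9 to 304 at day 7. Day 1 liver replicates 4 and 5 stood apart in Sox9, at 479.9 and 846 CPM against at most 78.9 in the other liver libraries. Liver markers of other cells were called at day 3 too, beside 28.6% of all genes. There were 6 higher and 0 lower of 6 islet markers, 5 higher and 0 lower of 6 neutrophil markers and 3 higher and 0 lower of 7 macrophage markers. Also at day 3 there were 4 higher and 0 lower of 5 cholangiocyte markers, 3 higher and 0 lower of 6 stellate cell and fibroblast markers, and 0 higher and 12 lower of 14 muscle-fibre markers. The islet sum was 0 CPM in sham livers and at most 0.309 at day 1. It was 6.14 to 185 CPM at day 3 and 9.24 to 66.3 CPM at day 7, and its source was not tested. The sum of 4 genes listed as brown adipocyte markers was 83.2 to 106 CPM in sham livers and 31.5 to 229.7 at day 1. At day 3 it was 6.37 to 20.7 CPM and at day 7 2.25 to 77.2 CPM. Of the 4 genes, 2 were tested in liver, with 0 higher and 1 lower at day 3. Which cells this sum came from was not tested, and the sum of 8 general adipocyte markers was 16.2 to 211 CPM in sham livers. The part of these cells in the results was not tested, except for muscle. In whole tissue, a lower value can come from fewer cells of a type or from less RNA per cell, and these cannot be told apart.

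The RefSeq promoter tables (build GRCm38.p6, the assembly also called mm10) held 16 windows for 9 of the 10 genes, each of 250 bases before and 50 bases after a transcript start. The search covered 6 sequence elements as exact matches on both strands: TNAAGGTCA for ERRs, GCGCANGCG for NRF1, TGACGTCA for cyclic AMP response, the E-box CACGTG, ACTTCCGG for GABP and AAGATGGCG for YY1. The NRF1 letters were found in 2 of the 16 windows and in 6.25% of all 32851 windows, and the GABP letters in 2 of the 16 and in 3.89% of all. The other elements had no exact match in the 16 windows, against 1.28% of all windows for the ERR letters, 1.79% for cyclic AMP response, 7.15% for the E-box and 1.4% for YY1. The 250 bases before the start are shown for 3 genes that moved in these tissues and hold a match, written 5′ to 3′ on the gene's strand with the matching letters in capitals.
Esrra, chr19:6921809-6922058, minus strand: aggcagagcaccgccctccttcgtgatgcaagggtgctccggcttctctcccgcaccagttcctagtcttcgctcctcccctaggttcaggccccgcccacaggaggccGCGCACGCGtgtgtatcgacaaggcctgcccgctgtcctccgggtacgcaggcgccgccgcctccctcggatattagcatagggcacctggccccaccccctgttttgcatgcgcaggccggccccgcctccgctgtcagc
Tfam, chr10:71238045-71238294, minus strand: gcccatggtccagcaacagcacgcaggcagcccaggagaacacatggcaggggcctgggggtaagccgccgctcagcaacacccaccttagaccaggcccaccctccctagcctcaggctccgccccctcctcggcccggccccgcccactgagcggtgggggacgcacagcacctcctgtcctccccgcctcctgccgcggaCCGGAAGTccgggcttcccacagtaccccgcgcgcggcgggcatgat
Opa1, chr16:29579084-29579333, plus strand: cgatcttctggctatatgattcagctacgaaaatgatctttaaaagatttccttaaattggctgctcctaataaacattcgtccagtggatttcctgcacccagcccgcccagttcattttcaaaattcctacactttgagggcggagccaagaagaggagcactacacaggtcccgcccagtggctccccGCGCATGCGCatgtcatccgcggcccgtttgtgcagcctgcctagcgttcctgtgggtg
In Esrra the capitals mark an NRF1 element that begins at -141 from the start, in Tfam a GABP element on the opposite strand at -47. In Opa1 they mark a run that reads as the NRF1 element on both strands, overlapping, at -59 and -58. Mfn1 held a GABP element at -44. A match of letters is a description of the sequence and not a measured binding site.

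The levels of the 10 genes in sham tissue came first. Per kilobase of exon, sham livers expressed Opa1 (27.4 ± 1.17 CPM per kb, mean ± SD, n = 3) and Mfn2 (26.6 ± 2.38) most. Next came Mfn1 (12.4 ± 0.970), Tfam (7.97 ± 0.253), Ppargc1b (6.91 ± 1.15), Esrra (4.62 ± 0.241), Ppargc1a (2.80 ± 0.764), Esrrg (1.98 ± 0.345), Nrf1 (1.64 ± 0.376) and Esrrb (0.169 ± 0.0422). Neighbours in this order whose libraries overlapped were Opa1 with Mfn2, Tfam with Ppargc1b, Ppargc1a with Esrrg and Esrrg with Nrf1. Sham quadriceps gave a different order, led by Mfn2 (77.8 ± 1.93 CPM per kb), then Opa1 (27.2 ± 1.67), Mfn1 (26.3 ± 5.01), Esrra (9.74 ± 1.21), Ppargc1a (9.55 ± 2.13), Ppargc1b (7.75 ± 1.29), Tfam (6.53 ± 0.378), Esrrg (2.62 ± 1.98), Nrf1 (1.87 ± 0.172) and Esrrb (0.214 ± 0.201). There, Opa1 overlapped Mfn1, Esrrg overlapped Nrf1, and each of Esrra, Ppargc1a and Ppargc1b overlapped the next gene in the order. Esrrb rested on 14 to 26 counts per sham liver library and 3 to 45 per sham quadriceps library, the fewest of the 10 genes.

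Between sham tissues, 4 of the 10 genes differed and all 4 were lower in liver than in quadriceps, beside 61.8% of all genes called in that comparison. Mfn2 had 131, 114 and 136 CPM in sham livers, against 375, 378 and 361 CPM in sham quadriceps, a log2 difference of -1.66 ± 0.26 (adjusted p = 1.83e-06). Ppargc1a had 17.4, 23.5 and 13.7 CPM in sham livers, against 72.1, 67.7 and 46.3 CPM in sham quadriceps (-1.88 ± 0.67, adjusted p = 0.0160). Neither gene's groups overlapped. Mfn1 (-1.20 ± 0.27, adjusted p = 0.000230) and Esrra (-1.19 ± 0.34, adjusted p = 0.00334) were the other two. The Ppargc1a call was lost when sham liver replicate 3 was left out (adjusted p = 0.0626 with a log2 fold change of -1.71). CPM is scaled within each tissue, while these tests scale all 36 libraries together.

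After PHx, most of the 10 genes did not pass the test on most days. Those that did were Ppargc1a, Esrrg, Opa1 and Mfn2 in liver and Ppargc1b, Esrra, Tfam and Nrf1 in quadriceps. In liver, 2 genes fell and 0 rose at day 1 (27.7% of all genes called), 1 rose and 2 fell at day 3 (28.6%), and 2 fell at day 7 (19.2%). In quadriceps, 0 of 10 were called at day 1 (5.29% of all genes, with Ppargc1b alone at an unadjusted p under 0.05), 1 rose and 3 fell at day 3 (47.5%), and 0 were called at day 7 (0.0588%, with Esrrb alone at an unadjusted p under 0.05). DESeq2 also called 0 in quadriceps at days 1 and 7. Beside these percentages, the counts say nothing particular about the 10 genes. With any 1 library of the groups compared left out, the number called was 1 to 5, 1 to 4 and 1 to 3 in liver at days 1, 3 and 7. In quadriceps it was 0, 3 to 5 and 0. The libraries that decide a call are named with each gene. Throughout, libraries left out 1 at a time are those of the groups compared, and omission of other libraries of the tissue was not tested.

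**Figure D1:**
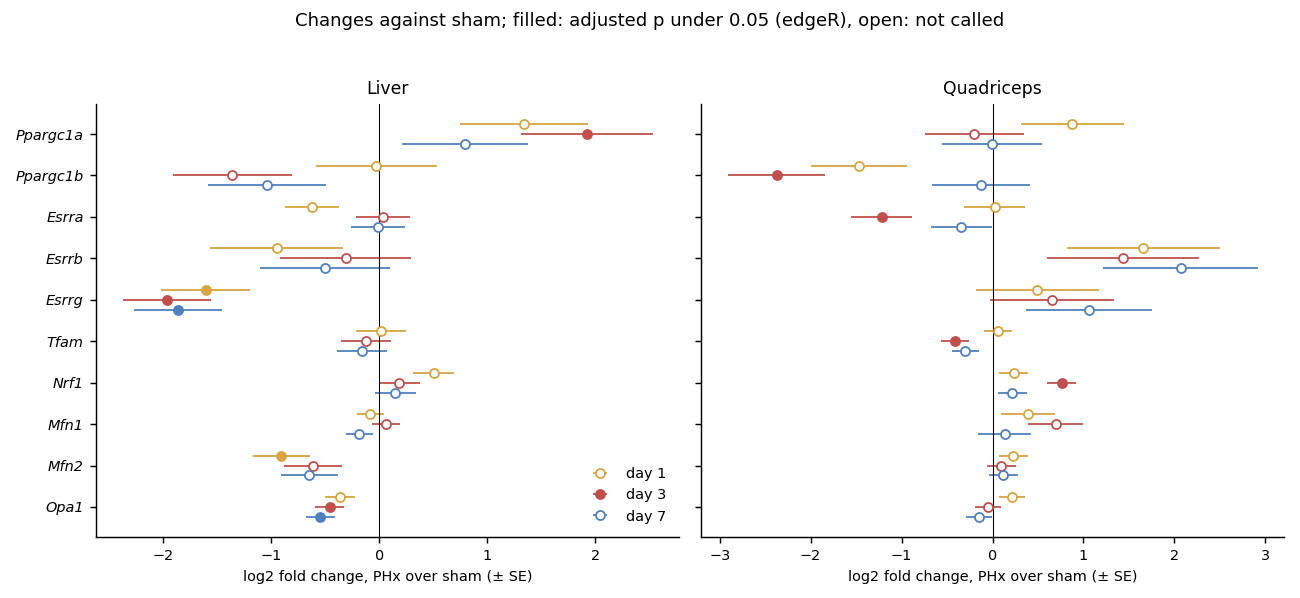
Log2 fold change of each gene in PHx over sham, with SE, in liver (left) and quadriceps (right), colours giving the day after PHx. Filled circles passed edgeR's test at an adjusted p under 0.05 and open circles did not. In liver the filled ones are Esrrg on all 3 days, Opa1 at days 3 and 7, Mfn2 at day 1 and Ppargc1a at day 3. In quadriceps they are Ppargc1b, Esrra, Tfam and Nrf1 at day 3.

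In the liver, Ppargc1a (mm10 chromosome 5, 51454249 to 51553921, minus strand) rose at day 3. Its level was 65.5, 108, 63.4, 54.0 and 53.7 CPM at day 3, against 17.4, 23.5 and 13.7 CPM in sham livers (1.92 ± 0.61 log2, adjusted p = 0.0262). All 5 day 3 livers lay above all 3 sham livers. At day 1 it had 28.4, 10.2, 133, 27.6 and 31.3 CPM and at day 7 14.9, 48.5, 34.3, 28.5 and 31.5 CPM. The log2 differences from sham were 1.34 ± 0.59 (adjusted p = 0.0989) and 0.79 ± 0.58 (adjusted p = 0.355). Day 1 was the most uneven: replicate 3 held more Ppargc1a RNA than any other liver, and replicate 2 less than any sham liver. Without replicate 2 the day 1 difference passed the test (adjusted p = 0.0371 with a log2 fold change of 1.62). The day 3 call was lost when sham replicate 1, 2 or 3 or day 3 replicate 2 was left out (adjusted p = 0.0546 to 0.1104 with log2 fold changes of 1.70 to 2.12). With the muscle-fibre marker sum as a covariate, whose values in sham livers did not overlap those at days 3 and 7, the day 3 value was 0.97 (adjusted p = 0.447). With such a covariate, muscle RNA and day cannot be told apart in these livers.

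Ppargc1b was not called by edgeR in the liver on any day. Its level was 20.6, 28.8 and 26.4 CPM in sham livers, 7.33, 21.3, 8.31, 54.0 and 33.6 at day 1, 18.7, 10.9, 5.69, 4.86 and 9.02 at day 3 and 9.45, 11.6, 10.8, 22.1 and 7.46 at day 7. All day 3 livers lay below all sham livers, while day 1 spread to both sides of them. The log2 differences from sham were -1.36 ± 0.55 at day 3 (adjusted p = 0.0720) and -1.04 ± 0.55 at day 7 (adjusted p = 0.190). Day 1 replicates 4 and 5, the 2 livers with the highest Sox9, also held the most Ppargc1b. Whether the levels of Sox9 and Ppargc1b were linked was not tested. DESeq2 called Ppargc1b at day 3 (-1.39, adjusted p = 0.0409). With edgeR fitted to the groups compared alone, it was called at day 3 (adjusted p = 0.0139) and day 7 (adjusted p = 0.0491). Without day 3 replicate 1 the day 3 difference passed the test (adjusted p = 0.0300 with a log2 fold change of -1.75).

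Of the ERRs, Esrrg fell in the liver on all 3 days. Esrrg (mm10 chromosome 1, 187609006 to 188214884, plus strand), whose receptor acts on oxidative genes in heart and muscle and is known in liver as a regulator of glucose production, had 12.2, 12.2 and 8.85 CPM in sham livers, 5.71, 3.33, 3.63, 2.39 and 2.99 CPM at day 1, 2.76, 2.06, 3.91, 2.84 and 2.60 CPM at day 3 and 1.71, 1.40, 4.77, 5.80 and 1.60 CPM at day 7. All 15 PHx livers lay below the lowest sham liver. The log2 fold changes were -1.61 ± 0.41 (adjusted p = 0.0102), -1.96 ± 0.41 (adjusted p = 0.00263) and -1.86 ± 0.41 (adjusted p = 0.00690) at days 1, 3 and 7. Each call held with any 1 library left out. The calls were lost at day 1 without replicates 4 and 5 together (-1.40, adjusted p = 0.0535), and with the muscle-fibre covariate at day 3 (-1.83, adjusted p = 0.0528) and day 7 (-1.74, adjusted p = 0.0713).

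The amount of muscle RNA in the livers bears on these levels directly. The muscle-fibre sum of the sham liver richest in it was 0.417% of the mean sham quadriceps sum, and that share of quadriceps RNA would bring 0.0610 CPM of Esrrg, 0.551% of the sham liver mean. For Mfn2 it would bring 1.55 CPM or 1.22%, for Opa1 0.414%, and for Ppargc1a 1.42%. These shares take all 14 markers to come from muscle like the quadriceps.

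Esrra, the ERR most widely tied to respiratory chain genes (mm10 chromosome 19, 6910977 to 6921808, minus strand), was not called by edgeR against sham on any day but differed between days. It had 10.3, 9.82 and 10.9 CPM in sham livers, 9.84, 5.32, 8.83, 4.38 and 5.05 CPM at day 1, 9.02, 14.1, 9.79, 9.77 and 10.3 CPM at day 3 and 9.91, 9.79, 9.59, 14.1 and 8.08 CPM at day 7. Day 1 replicates 2, 4 and 5 lay below every other liver, and the remaining 2 day 1 livers within the range of the other groups. At day 3 it stood 0.66 ± 0.22 log2 above day 1 (adjusted p = 0.0382; 25.2% of all genes called), and at day 7 it stood 0.61 ± 0.22 above day 1 (adjusted p = 0.0423; 32.6%). The first call was lost without day 1 replicate 2, 4 or 5 or day 3 replicate 2, 3, 4 or 5 (adjusted p = 0.0569 to 0.105 with log2 fold changes of 0.53 to 0.68). The second was lost without day 1 replicate 2, 4 or 5 or day 7 replicate 1, 2 or 4 (adjusted p = 0.0632 to 0.117 with log2 fold changes of 0.47 to 0.63). The day 1 difference from sham was -0.62 ± 0.25 (adjusted p = 0.0714). DESeq2 called it (adjusted p = 0.0480), and with edgeR it passed the test without day 1 replicate 1 or 3 (adjusted p = 0.0170 to 0.0327 with log2 fold changes of -0.77 to -0.78). Between days 7 and 3, 0 of the 10 genes were called in liver, beside 1.26% of all genes, with Ppargc1a and Mfn1 at an unadjusted p under 0.05 and 0 called by DESeq2.

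Esrrb (mm10 chromosome 12, 86361117 to 86521628, plus strand), a receptor best known from stem cells, had few reads in liver. It had 14 to 26 counts per library in sham livers, 2 to 17 at day 1, 7 to 23 at day 3 and 3 to 23 at day 7, and was not called on any day (adjusted p = 0.262, 0.734 and 0.594 at days 1, 3 and 7).

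Tfam and Nrf1 were not called by edgeR in the liver. Tfam had 31.2 ± 0.993 CPM in sham livers (mean ± SD, n = 3), 31.6 ± 12.1 at day 1, 28.6 ± 4.01 at day 3 and 27.9 ± 4.08 at day 7 (n = 5 each), with adjusted p of 0.964, 0.721 and 0.661. Nrf1 had 10.2, 14.2, 9.96, 12.1 and 15.9 CPM at day 1, against 11.1, 7.92 and 7.33 CPM in sham livers (0.50 ± 0.19, adjusted p = 0.0596). DESeq2 called the Nrf1 difference (adjusted p = 0.0440). Sham replicate 1 lay inside the day 1 range and the other sham livers below it. Without sham replicate 1 or day 1 replicate 1 or 3 the difference passed the test (adjusted p = 0.0266 to 0.0414 with log2 fold changes of 0.54 to 0.70).

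Of the fusion genes, Opa1 fell in liver at days 3 and 7, Mfn2 fell at day 1 and Mfn1 was not called. Opa1 (mm10 chromosome 16, 29579334 to 29654602, plus strand) fell at day 3, with 125, 139, 121, 110.0 and 104 CPM against 160.3, 161 and 173 CPM in sham livers (-0.46 ± 0.14, adjusted p = 0.0188). It also fell at day 7, with 93.8, 109, 125, 129 and 107 CPM (-0.55 ± 0.14, adjusted p = 0.0127). At day 1 it had 133, 107, 147, 134 and 119 CPM, and the difference of -0.36 ± 0.14 missed the threshold (adjusted p = 0.0556), though DESeq2 called it (adjusted p = 0.0198). Every PHx liver lay below every sham liver. The day 3 call was lost without sham replicate 1 or 3 (adjusted p = 0.0522 to 0.0662 with log2 fold changes of -0.45 to -0.48). The day 7 call was lost without sham replicate 3 (adjusted p = 0.0621 with a log2 fold change of -0.53), while the day 1 difference passed without day 1 replicate 3 (adjusted p = 0.0207 with a log2 fold change of -0.45). With the muscle-fibre covariate the day 3 value was -0.56 (adjusted p = 0.0626).

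Mfn2 (mm10 chromosome 4, 147873586 to 147904909, minus strand) fell at day 1. It had 96.7, 50.2, 101.2, 42.5 and 48.3 CPM at day 1, against 131, 114 and 136 CPM in sham livers (-0.90 ± 0.26, adjusted p = 0.0197). The day 1 livers split, with replicates 2, 4 and 5 at 42.5 to 50.2 CPM and replicates 1 and 3 at 96.7 and 101.2 CPM, and all 5 lay below sham. These are the same 3 replicates that were low in Esrra. At days 3 and 7 it had 92.2, 83.7, 85.7, 74.4 and 78.8 CPM and 71.1, 73.5, 63.9, 123 and 74.03 CPM. The differences of -0.61 ± 0.27 and -0.65 ± 0.27 were not called (adjusted p = 0.0916 and 0.0931). With edgeR fitted to the sham and day 3 livers alone, the day 3 difference was called (adjusted p = 0.000240). Only day 7 replicate 4 overlapped sham, and without it day 7 passed the test (adjusted p = 0.0227 with a log2 fold change of -0.85). The day 1 call was lost without sham replicate 1 or 3 (adjusted p = 0.0643 to 0.0744 with log2 fold changes of -0.84 to -0.88). It was also lost without day 1 replicates 4 and 5 together (-0.63, adjusted p = 0.0903) and with the muscle-fibre covariate (-0.74, adjusted p = 0.104). A fit of the sham and day 1 livers alone lost it too. Mfn1 (mm10 chromosome 3, 32529482 to 32579225, plus strand) had 56.1 ± 4.40 CPM in sham livers (mean ± SD, n = 3), 53.0 ± 8.13 at day 1, 58.6 ± 3.76 at day 3 and 49.3 ± 3.87 at day 7 (n = 5 each), with adjusted p of 0.658, 0.741 and 0.315.

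**Figure D2:**
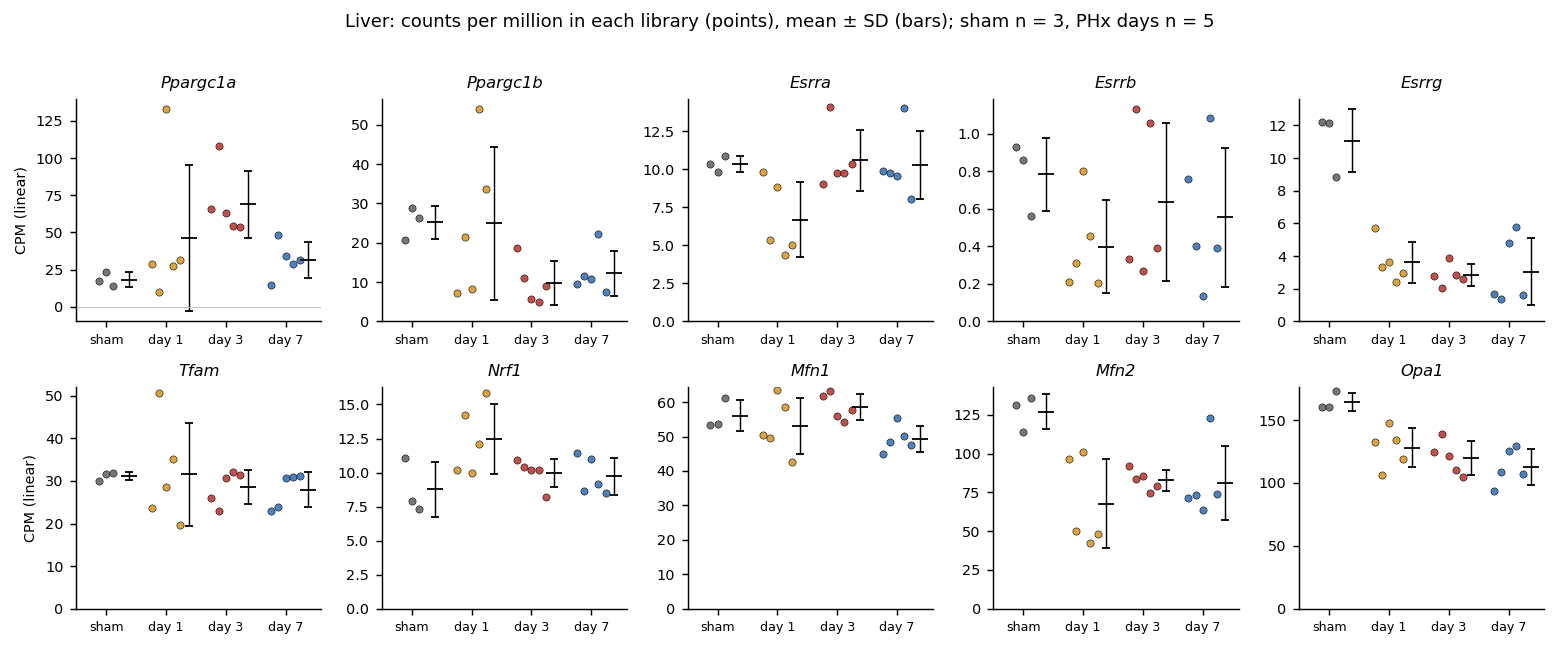
CPM of each gene in the 18 liver libraries on a linear axis, 1 panel a gene, with points for libraries and bars for the mean ± SD of sham (n = 3) and days 1, 3 and 7 after PHx (n = 5 each). Esrrg and Opa1 sit below every sham library on all 3 days, Ppargc1a above every sham library at day 3, and the day 1 Mfn2 and Esrra values fall in 2 clumps.

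In quadriceps the largest called change among the 10 genes was in Ppargc1b, and it came at day 3. Ppargc1b had 1.88, 3.25, 7.24, 2.58 and 12.3 CPM at day 3, against 31.1, 31.0 and 22.9 CPM in sham muscles (-2.37 ± 0.54 log2, adjusted p = 0.00229). The groups did not overlap, and the call held with any 1 library left out. At day 1 it had 12.8, 11.1, 7.09, 8.79 and 11.4 CPM, all below sham, but the difference of -1.47 ± 0.53 missed the threshold (adjusted p = 0.0957). That difference was called with edgeR fitted to the sham and day 1 muscles alone. It was also called with the slow-fibre sum described below as a covariate. The lowest adjusted p among the alternatives was 0.00568. By day 7 it was 42.4, 28.8, 6.24, 36.3 and 15.9 CPM, which spans the sham range (adjusted p = 0.947). At day 7 it stood 2.25 ± 0.49 log2 above day 3 (adjusted p = 0.00329; 36.5% of all genes called), and day 7 replicate 3 alone stayed within the day 3 range. Between days 7 and 1 it differed by 1.34 ± 0.48 (adjusted p = 0.115). In that comparison 0 of the 10 genes were called, beside 2.01% of all genes. Ppargc1b, Tfam and Opa1 had an unadjusted p under 0.05, and 2, Ppargc1b and Opa1, were called by DESeq2. Without day 7 replicate 3 these 3 genes passed edgeR's test, Ppargc1b with an adjusted p of 0.0236 with a log2 fold change of 1.59, Tfam with 0.0133 with a log2 fold change of -0.49 and Opa1 with 0.0227 with a log2 fold change of -0.45.

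Ppargc1a in quadriceps was set apart by 1 library. It had 72.1, 67.7 and 46.3 CPM in sham muscles, 51.5, 43.1, 69.1, 65.8 and 341 CPM at day 1, 28.2, 68.1, 63.4, 43.4 and 66.8 CPM at day 3 and 79.3, 84.7, 33.5, 63.5 and 48.8 CPM at day 7. Day 1 replicate 5 was far above every other muscle, and all PHx groups overlapped sham. The day 1 difference of 0.88 ± 0.57 (adjusted p = 0.321) turned to -0.11 without that library (adjusted p = 0.847), and days 3 and 7 had adjusted p of 0.779 and 0.999. Of 7 early genes of cyclic AMP signalling, a list chosen after its values were seen, 6 were highest of all quadriceps in the same muscle. The exception was Fosb, a subunit of the AP-1 factor, with 14.9, 0.958, 0.533, 0.260 and 3.41 CPM over day 1 replicates 1 to 5. Nr4a3, an early nuclear receptor gene, had 39.3, 19.7, 13.8, 16.2 and 397 CPM in that order, and Dio2, the enzyme that activates thyroid hormone, 3.998, 10.2, 3.84, 9.63 and 146 CPM. Sik1, a kinase gene induced by cyclic AMP, had 98.8, 175, 178, 186 and 761 CPM. Sik1 was also high at day 3, with 541, 524, 294, 456 and 136 CPM, against 22.1, 18.2 and 13.4 CPM in sham muscles. Day 3 replicate 1, with the most Sik1 of that day, held the least Ppargc1a of all muscles, at 28.2 CPM. The part of these early genes' level in that of Ppargc1a was not tested.

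Esrra fell in quadriceps at day 3. It had 3.51, 6.995, 14.5, 6.86 and 14.9 CPM at day 3, against 24.5, 22.0 and 19.0 CPM in sham muscles (-1.22 ± 0.33, adjusted p = 0.00687). All day 3 muscles lay below all sham muscles, with replicates 3 and 5 the closest to them, and the call held with any 1 library left out. Against day 1, with 16.7, 19.97, 23.9, 25.3 and 25.3 CPM, the day 3 muscles were lower (log2 fold change -1.25 ± 0.30, adjusted p = 0.00643; 26.2% of all genes called). By day 7 it had 18.9, 19.5, 19.5, 17.4 and 10.8 CPM, a rise of 0.88 ± 0.30 over day 3 (adjusted p = 0.0290) and no call against sham (adjusted p = 0.711). The rise from day 3 to day 7 was lost without day 3 replicate 2 or 4 or day 7 replicate 1, 2 or 4 (adjusted p = 0.0544 to 0.0731 with log2 fold changes of 0.78 to 0.87).

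The other ERRs were not called by edgeR in quadriceps. Esrrg had 25.8, 14.4 and 3.71 CPM in sham muscles, 18.6, 18.6, 27.0, 17.2 and 21.6 CPM at day 1, 3.21, 20.6, 39.8, 11.8 and 39.9 CPM at day 3 and 29.0, 63.8, 11.3, 14.4 and 34.6 CPM at day 7, and was not called on any day (adjusted p = 0.659, 0.439 and 0.580). The sham range lay inside that of day 3 and overlapped those of days 1 and 7, and day 3 replicates 3 and 5, the highest in Esrrg, were also the highest day 3 muscles in Ppargc1b and Esrra. Esrrb had 3.52, 9.20, 5.37, 1.10 and 1.65 CPM at day 7, against 1.97, 0.855 and 0.133 CPM in sham muscles (2.07 ± 0.85, adjusted p = 0.360), and the groups overlapped. At days 1 and 3 it had 3.35, 1.69, 7.09, 2.15 and 1.28 CPM and 0.788, 2.71, 2.33, 1.41 and 6.10 CPM (adjusted p = 0.211 and 0.163).

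Genes of slow muscle fibres, a list of 8 chosen after the values were seen, differed widely between muscles. The summed CPM of the 8 genes was 99.3, 88.7 and 123 in sham muscles, 187, 125, 804, 178 and 161 at day 1, 148, 148, 453, 124 and 1023 at day 3 and 141, 1706, 177, 467 and 160.0 at day 7. In each PHx group, the muscle with the largest sum, at 804, 1023 and 1706 CPM, was also the highest of its day in Esrrb and in Esrrg. The sum of every PHx muscle was above that of every sham muscle, but day 3 replicate 4, at 124 CPM, only narrowly passed 123 CPM. Most of its sum came from Atp2a2 (90.5 CPM) and Tpm3 (32.1 CPM). The slow myosin gene Myh7 was 0.177 to 0.79 CPM in sham muscles and as high as 500.4 CPM at day 7. In day 3 replicate 4 it was 0.438 CPM, within the sham range, while every other PHx muscle was above that range. The sum therefore does not show that slow-fibre genes were higher in every PHx muscle. Over the 18 quadriceps libraries, Pearson's r with the log2 sum was 0.63 for Esrrb and 0.55 for Esrrg (Spearman's rho 0.63 and 0.52), 0.52 and 0.48 for deviations from group means, and 0.42 and 0.31 without the 2 libraries farthest from the median sum. These values describe libraries of which many share a group, and the part of fibre type in the differences from sham was not tested.

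**Figure D3:**
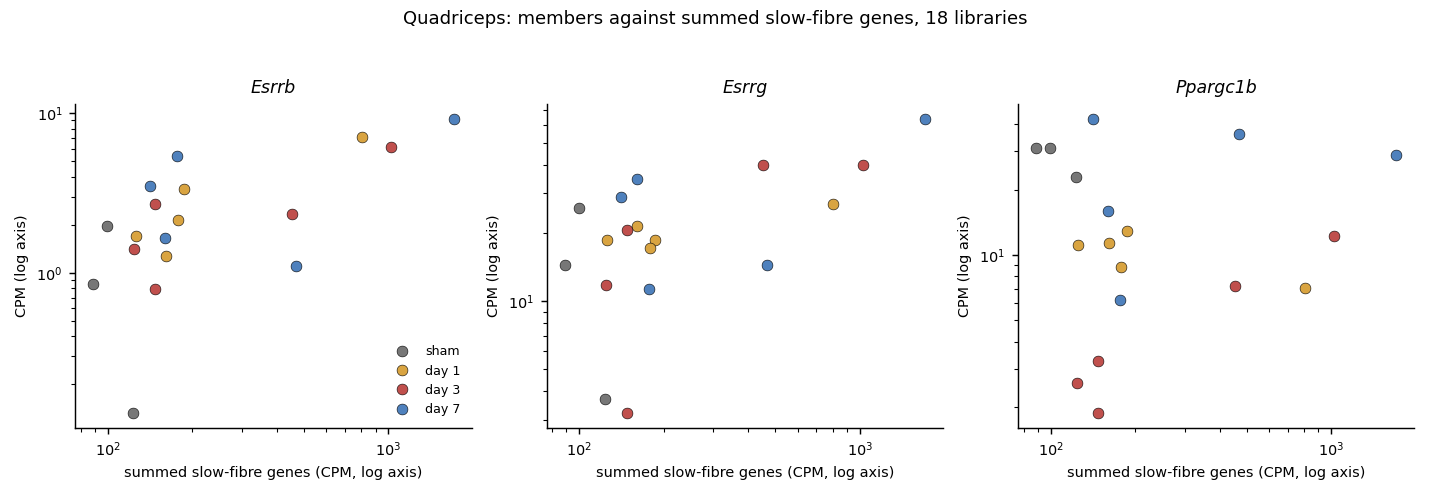
CPM of Esrrb, Esrrg and Ppargc1b (log axes) against the summed CPM of 8 slow-fibre genes (log axis) in the 18 quadriceps libraries, coloured by group. The muscles with the largest sum of each PHx day, at 804, 1023 and 1706 CPM, hold the highest Esrrb and Esrrg values of their day, and the 3 lowest Ppargc1b values are from day 3.

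Tfam fell and Nrf1 rose in quadriceps at day 3. Tfam (mm10 chromosome 10, 71225477 to 71238044, minus strand) had 17.4, 20.3, 19.8, 16.8 and 21.6 CPM at day 3, against 27.2, 25.4 and 24.2 CPM in sham muscles (-0.41 ± 0.15, adjusted p = 0.0321). The groups did not overlap, and the call was lost without sham replicate 1, 2 or 3 or day 3 replicate 1 or 4 (adjusted p = 0.0569 to 0.111 with log2 fold changes of -0.37 to -0.45). Against the 5 day 1 muscles, with 28.7, 24.8, 28.5, 26.1 and 25.1 CPM, Tfam was lower at day 3 by a log2 fold change of -0.47 ± 0.13 (adjusted p = 0.0149), which held with any 1 library left out. At day 7 it had 21.9, 17.5, 28.4, 18.1 and 18.2 CPM (adjusted p = 0.466 against sham).

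Nrf1 (mm10 chromosome 6, 30047988 to 30153458, plus strand) had 18.5, 17.4, 18.3, 17.0 and 13.6 CPM at day 3, against 9.08, 10.02 and 10.9 CPM in sham muscles (0.76 ± 0.16, adjusted p = 0.00149). All day 3 muscles lay above all muscles of the other groups. Day 1 muscles had 13.1, 11.3, 12.9, 11.8 and 9.80 CPM and day 7 muscles 10.4, 12.5, 12.8, 9.19 and 13.5 CPM, with no call against sham (adjusted p = 0.345 and 0.614). The day 3 value was 0.53 ± 0.14 above day 1 (adjusted p = 0.00982), and day 7 was -0.54 ± 0.14 relative to day 3 (adjusted p = 0.00666). Each of these 3 calls held with any 1 library left out.

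The fusion genes were not called by edgeR in quadriceps. Mfn1 came closest, with 271, 232, 156, 168 and 137 CPM at day 3, against 136, 129 and 93.5 CPM in sham muscles (0.69 ± 0.30, adjusted p = 0.0645). DESeq2 called it (adjusted p = 0.0489). Every day 3 muscle lay above every sham muscle, though replicate 5 did so narrowly, and without it the difference passed the test (adjusted p = 0.0381 with a log2 fold change of 0.79). Mfn2 had 371 ± 9.18 CPM in sham muscles (mean ± SD, n = 3), 434 ± 59.0 at day 1, 397 ± 47.5 at day 3 and 402 ± 56.1 at day 7 (n = 5 each). Opa1 had 163 ± 10.01 CPM in sham muscles and 189 ± 14.1, 157 ± 16.9 and 147 ± 22.4 CPM on those days. Adjusted p for both genes on all 3 days lay between 0.338 and 0.803.

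**Figure D4:**
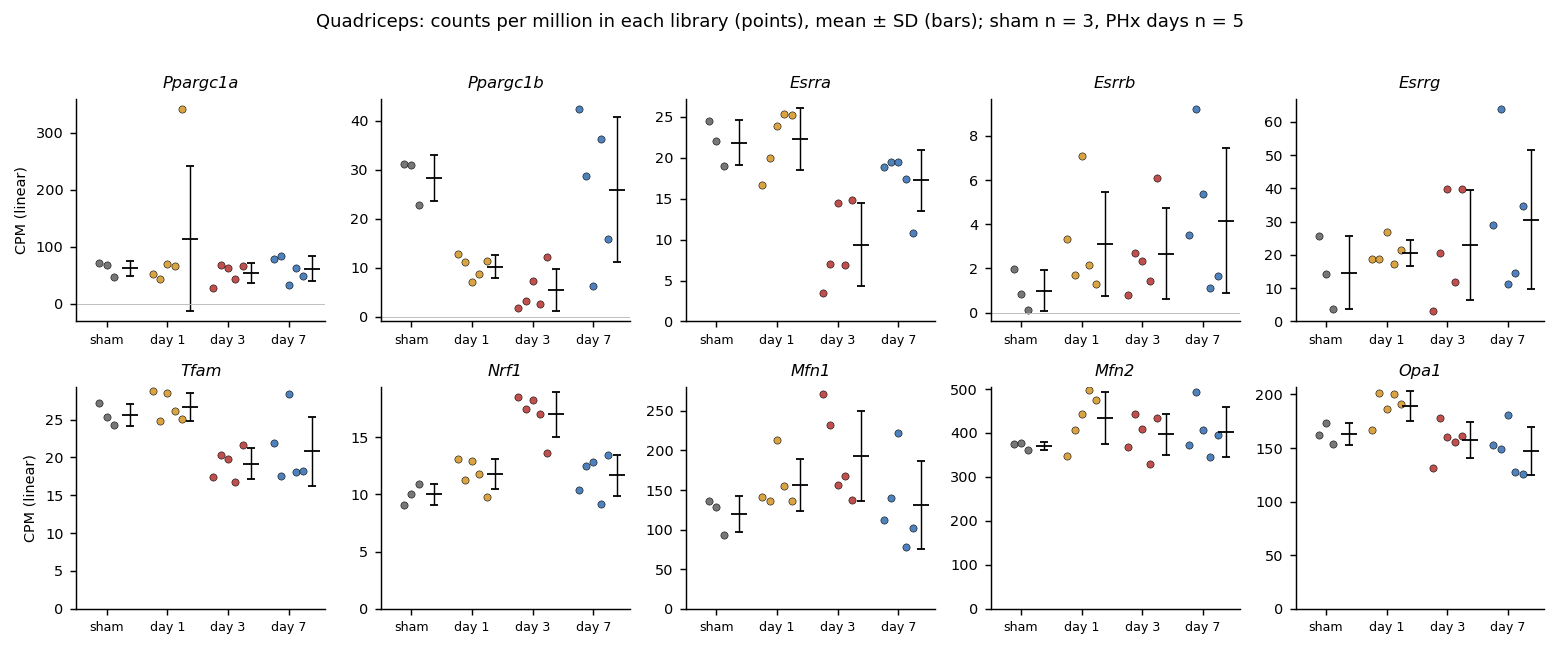
CPM of each gene in the 18 quadriceps libraries on a linear axis, with points for libraries and bars for the mean ± SD of sham (n = 3) and days 1, 3 and 7 after PHx (n = 5 each). Ppargc1b, Esrra and Tfam sit below every sham library at day 3 and Nrf1 above, and 1 day 1 muscle holds 341 CPM of Ppargc1a.

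Cell type markers also differed between the quadriceps groups. The marker counts at day 3 stand beside 47.5% of all genes called. At day 3, 6 of 14 muscle-fibre markers fell and 0 rose, and their sum was 170653 to 271881 CPM, against 290981 to 387783 CPM in sham muscles. Of 8 adipocyte markers 7 fell and 1 rose at day 3, with sums of 1127 to 1453 CPM against 871 to 3586 CPM in sham muscles, ranges that overlap. The sum of 4 brown adipocyte markers was 2.88 to 9.63 CPM at day 3, all below the 22.9 to 36.8 CPM of sham muscles, with 1 of 3 tested lower. Of 10 hepatocyte markers 6 rose and 1 fell, with sums of 13.8 to 257 CPM against 43.6 to 303 CPM in sham muscles, and 5 of 8 slow-fibre genes rose. The part of these cells in the changes of the 10 genes was not tested beyond the covariates that follow. All 4 tested islet markers fell at day 3, and the islet sum was at most 0.176 CPM at day 3, against 6.89 to 29.1 CPM in sham muscles. It was 0.0651 to 58.0 CPM at day 1 and at most 0.130 at day 7. The source of the islet transcripts in either tissue was not tested. With the adipocyte sum as a covariate, the 4 quadriceps genes called at day 3 kept their calls: Ppargc1b at -2.39, Esrra at -1.21, Nrf1 at 0.73 and Tfam at -0.44. With the slow-fibre sum as a covariate, Ppargc1b was -2.96, Esrra -1.61 and Nrf1 0.78, all called, while Tfam (-0.41, adjusted p = 0.0560) was not. The slow-fibre sums of sham muscles (88.7 to 123 CPM) did not overlap those at day 3 (124 to 1023 CPM). With such a covariate, slow-fibre RNA and day cannot be told apart in these muscles.

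Whether liver and quadriceps responded differently was tested as the difference of their changes from sham, over 36 libraries. At day 1, 2 of the 10 genes differed, beside 11.2% of all genes: Mfn2 (-1.13 ± 0.32, adjusted p = 0.0208) and Opa1 (-0.57 ± 0.19, adjusted p = 0.0495), both lower in the liver response. At day 3, 4 differed, beside 41.5%. Esrrg was lower in the liver response (-2.63 ± 0.83, adjusted p = 0.0125), as was Nrf1 (-0.58 ± 0.24, adjusted p = 0.0460), while Ppargc1a (2.11 ± 0.83, adjusted p = 0.0415) and Esrra (1.24 ± 0.44, adjusted p = 0.0228) were higher. At day 7 the single gene was Esrrg (-2.94 ± 0.84, adjusted p = 0.0305), beside 7.08%.

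Of these 7 differences, the day 3 value of Esrrg held with any 1 of 16 libraries left out. Esrra at day 3 was lost without quadriceps sham replicate 1 (adjusted p = 0.0537 with a log2 fold change of 1.15). Mfn2 at day 1 was lost without liver sham replicate 1 or 3 or quadriceps sham replicate 3 (adjusted p = 0.05002 to 0.0571 with log2 fold changes of -1.08 to -1.10). Opa1 at day 1 and Nrf1 at day 3 were each lost under 13 of 16 omissions (adjusted p = 0.0572 to 0.132 with log2 fold changes of -0.51 to -0.62, and 0.0504 to 0.223 with log2 fold changes of -0.38 to -0.65). The omissions that spared them were liver day 1 replicates 1 and 3 and quadriceps day 1 replicate 1 for Opa1 and liver sham replicates 2 and 3 and quadriceps day 3 replicate 5 for Nrf1. With the replicate number as a block, Opa1 (adjusted p = 0.0733) and Nrf1 (adjusted p = 0.0951) were lost too. Ppargc1a at day 3 was lost under 7 (liver sham replicate 1 or 3, liver day 3 replicate 2, quadriceps sham replicate 1 or 2, quadriceps day 3 replicate 1 or 4, adjusted p = 0.0612 to 0.1003 with log2 fold changes of 1.89 to 2.08). Esrrg at day 7 was lost under 9 (any liver sham replicate, liver day 7 replicate 1, 2 or 5, quadriceps sham replicate 2 or 3, quadriceps day 7 replicate 2, adjusted p = 0.0514 to 0.0958 with log2 fold changes of -2.48 to -3.08). The coactivator gene Ppargc1b fell at day 3 in quadriceps but was not called in the fit over all livers. Its difference between tissues of 1.001 ± 0.82 was not called (adjusted p = 0.334), so the tissues are not shown to differ.

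Within a tissue some of the genes varied together from library to library. In liver, Esrra and Mfn2 had a Pearson's r of 0.78 over 18 libraries and 0.86 for deviations from group means. In quadriceps, Ppargc1b ran against Nrf1 (-0.83, and -0.61 for deviations) and against Mfn1 (-0.82 and -0.72), and Esrrb ran with Esrrg (0.74 and 0.70). These pairs were picked from 45 pairs per tissue for their size, and libraries of a group share their day, so the values are a description. The likeness of other genes to Ppargc1a was taken over genes that averaged 5 CPM or more in the tissue. Of 9535 such liver genes, those most like it were Fn1, fibronectin (r = 0.87), Ncstn, a subunit of gamma-secretase (0.86), Cps1, the first enzyme of the urea cycle (0.85), and Gldc, glycine decarboxylase (0.83). Without the 2 livers farthest from the median these were 0.78, 0.85, 0.78 and 0.87. Of 8736 quadriceps genes they were Alpl, an alkaline phosphatase (0.95), Fem1c, a part of a ubiquitin ligase (0.89), Rassf8 (0.88) and Ube2l6, a conjugating enzyme of ISG15 (0.85). Without the 2 muscles farthest from the median, day 1 replicate 5 among them, these were 0.76, 0.72, 0.75 and 0.51.

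The pathway around the 10 genes was described with 8 lists written from general knowledge with results of these data known, each without the 10 genes themselves. Counts are of tested genes called by edgeR, and the percentage beside each is the share of all genes called in that comparison. Among nuclear receptors and cofactors that work with PGC-1, liver had 4 higher and 5 lower of 23 (27.7%) at day 1, 0 higher and 6 lower of 23 (28.6%) at day 3 and 0 higher and 9 lower of 23 (19.2%) at day 7. Ppara, the receptor that drives fatty acid oxidation, fell at day 1 by a log2 fold change of -2.004 ± 0.36, adjusted p = 0.00193, with 179 ± 46.6 CPM at day 1 and 718 ± 61.9 CPM in sham livers (SD, n = 5 and 3). Ppard, its relative, rose at day 1 (1.21 ± 0.24, adjusted p = 0.00301), and Yy1, a transcription factor that binds PGC-1 alpha, fell at day 7 (-0.64 ± 0.11, adjusted p = 0.00203). In quadriceps at day 3 the list had 11 higher and 3 lower of 23 (47.5%), among them Yy1 (0.98 ± 0.20, adjusted p = 0.00123), the acetyltransferase Crebbp (1.02 ± 0.23, adjusted p = 0.00244) and Lpin1, a coactivator and lipid phosphatase (1.76 ± 0.44, adjusted p = 0.00409), all higher. The list's median log2 fold change there was 0.49, beside -0.017 over all genes tested.

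Another list held kinases, deacetylases and factors listed as upstream of Ppargc1a, though whether each acts upstream was not tested. Liver had 4 higher and 6 lower of 27 (27.7%) at day 1 and 1 higher and 8 lower of 27 (28.6%) at day 3. At day 7 liver had 1 higher and 6 lower of 27 (19.2%). Prkaa2, a catalytic subunit of AMP-activated protein kinase, fell at day 3 (-1.15 ± 0.17, adjusted p = 0.000246). So did Nr3c1, the glucocorticoid receptor (-0.85 ± 0.14, adjusted p = 0.000708). Sirt3, a mitochondrial deacetylase, fell at day 1 (-1.22 ± 0.28, adjusted p = 0.00626). In quadriceps at day 3 there were 6 higher and 9 lower of 28 (47.5%). Among those that fell were Prkag3, the AMP-activated kinase subunit of fast muscle (-3.76 ± 0.74, adjusted p = 0.00102), Camk2a, a calcium-dependent kinase (-2.72 ± 0.44, adjusted p = 0.000423), Mef2c, a muscle transcription factor (-2.72 ± 0.46, adjusted p = 0.000507), and Prkag2 (-1.46 ± 0.24, adjusted p = 0.000441). Prkag3 had 14.2 ± 8.26 CPM at day 3, against 192 ± 13.7 CPM in sham muscles (SD, n = 5 and 3).

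Known PGC-1 and ERR targets had calls in both directions. In liver, where Ppargc1a rose at day 3, the list had 2 higher and 8 lower of 40 (28.6%) at day 3 with a median of -0.073, beside 0.042 over all genes. It had 4 higher and 3 lower of 40 (27.7%) at day 1 and 1 higher and 9 lower of 40 (19.2%) at day 7 with a median of -0.54, beside 0.051. Ucp2, a mitochondrial carrier, rose at day 3 (1.48 ± 0.21, adjusted p = 0.000226) and Aldh6a1, an enzyme of valine breakdown, fell (-1.25 ± 0.25, adjusted p = 0.00191). At day 1, Gdf15, a stress hormone, rose by 4.19 ± 0.85, adjusted p = 0.00338 and Cycs, cytochrome c, by 1.16 ± 0.24, adjusted p = 0.00387. In quadriceps at day 3, where Ppargc1b and Esrra fell, 7 higher and 3 lower of 40 (47.5%) had a call, with a median of -0.0023, beside -0.017 over all genes. Pdk4, the kinase that shuts off pyruvate oxidation, rose (4.71 ± 1.12, adjusted p = 0.00317), at 9031 ± 3819.5 CPM at day 3 and 345 ± 16.0 CPM in sham muscles, and Idh3a, a subunit of isocitrate dehydrogenase, fell (-1.20 ± 0.23, adjusted p = 0.000820). Ucp3 (3.22 ± 0.85, adjusted p = 0.0405) and Ucp2 (1.997 ± 0.54, adjusted p = 0.0440) rose at day 1, among 3 of 40 that did (5.29%).

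Genes that copy, transcribe or maintain mitochondrial DNA beside Tfam gave 3 higher and 3 lower of 23 (27.7%) in liver at day 1, 1 higher and 3 lower of 23 (28.6%) at day 3 and 0 higher and 2 lower of 23 (19.2%) at day 7. Clpx, a subunit of a matrix protease (1.52 ± 0.34, adjusted p = 0.00523), and Rnaseh1, which removes RNA primers (1.29 ± 0.30, adjusted p = 0.00703), rose at day 1. Tfb2m, the partner of Tfam at mitochondrial promoters, fell at day 7 (-0.63 ± 0.15, adjusted p = 0.00989). In quadriceps at day 3, with Tfam lower, Tfb2m (0.83 ± 0.17, adjusted p = 0.00129), Mterf3 (1.12 ± 0.28, adjusted p = 0.00410) and Ssbp1, which binds single-stranded mitochondrial DNA (0.73 ± 0.19, adjusted p = 0.00494), rose and the nuclease gene Mgme1 fell (-1.39 ± 0.34, adjusted p = 0.00364), among 7 higher and 3 lower of 23 (47.5%). The deposited count table held 0 genes with the symbols of mitochondrial DNA itself (mt-), on which the Tfam protein acts. Their transcripts could therefore not be analysed here.

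Genes that process OPA1 or hold cristae gave, in liver, 2 higher and 1 lower of 20 (27.7%), 1 higher and 2 lower of 20 (28.6%) and 0 higher and 1 lower of 20 (19.2%) at days 1, 3 and 7. Yme1l1, the protease that cleaves OPA1 in the inner membrane, fell at day 3 (-0.38 ± 0.12, adjusted p = 0.0288), and Letm1, a cation exchanger of that membrane, fell at day 7 (-0.57 ± 0.15, adjusted p = 0.0188). In quadriceps at day 3, Afg3l2, a subunit of another membrane protease (1.16 ± 0.19, adjusted p = 0.000442), and Slc25a46 (1.05 ± 0.21, adjusted p = 0.000995) rose, and Phb, prohibitin, fell (-0.90 ± 0.16, adjusted p = 0.000675), among 8 higher and 3 lower of 19 (47.5%). Fission genes gave 3 higher and 1 lower of 15 (28.6%) in liver at day 3 and 1 higher and 4 lower of 16 (47.5%) in quadriceps at day 3. There, Gdap1 (-3.48 ± 0.74, adjusted p = 0.00160) and Mtfp1 (-1.70 ± 0.35, adjusted p = 0.00131) fell. Liver Mtfr2, a fission regulator, rose at day 3 (2.94 ± 0.75, adjusted p = 0.00852).

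Of the 8 lists in the 6 comparisons with sham, the highest share called was in mitophagy, the removal of mitochondria, in quadriceps at day 3, with 10 higher and 2 lower of 14 (47.5%) and a median log2 fold change of 1.09, beside -0.017 over all genes. The receptors Bnip3l (1.91 ± 0.33, adjusted p = 0.000552), Optn (1.46 ± 0.26, adjusted p = 0.000653) and Tax1bp1 (1.95 ± 0.36, adjusted p = 0.000749) and the ubiquitin ligase gene Park2 (1.18 ± 0.22, adjusted p = 0.000833) rose. Bnip3l had 339 ± 126 CPM at day 3, against 90.3 ± 5.76 CPM in sham muscles (SD, n = 5 and 3). In liver the list had 2 higher and 0 lower of 14 (27.7%) at day 1, 0 higher and 2 lower of 14 (28.6%) at day 3 and 0 higher and 3 lower of 14 (19.2%) at day 7. Bnip3 fell at day 3 (-1.32 ± 0.32, adjusted p = 0.00643) and Pink1, the kinase that recruits Parkin, at day 7 (-0.75 ± 0.17, adjusted p = 0.00704). Protein import genes had 9 higher and 0 lower of 20 (47.5%) in quadriceps at day 3, among them Tomm20, the outer membrane receptor (1.18 ± 0.23, adjusted p = 0.00104), and Timm10 (1.85 ± 0.47, adjusted p = 0.00442). In liver, Tomm20 rose at day 1 (0.81 ± 0.22, adjusted p = 0.0155) and Timm9 fell (-0.67 ± 0.16, adjusted p = 0.00735), among 3 higher and 2 lower of 20 (27.7%). In quadriceps at day 7, 0 genes of the 8 lists were called by edgeR (0.0588%).

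**Figure D5:**
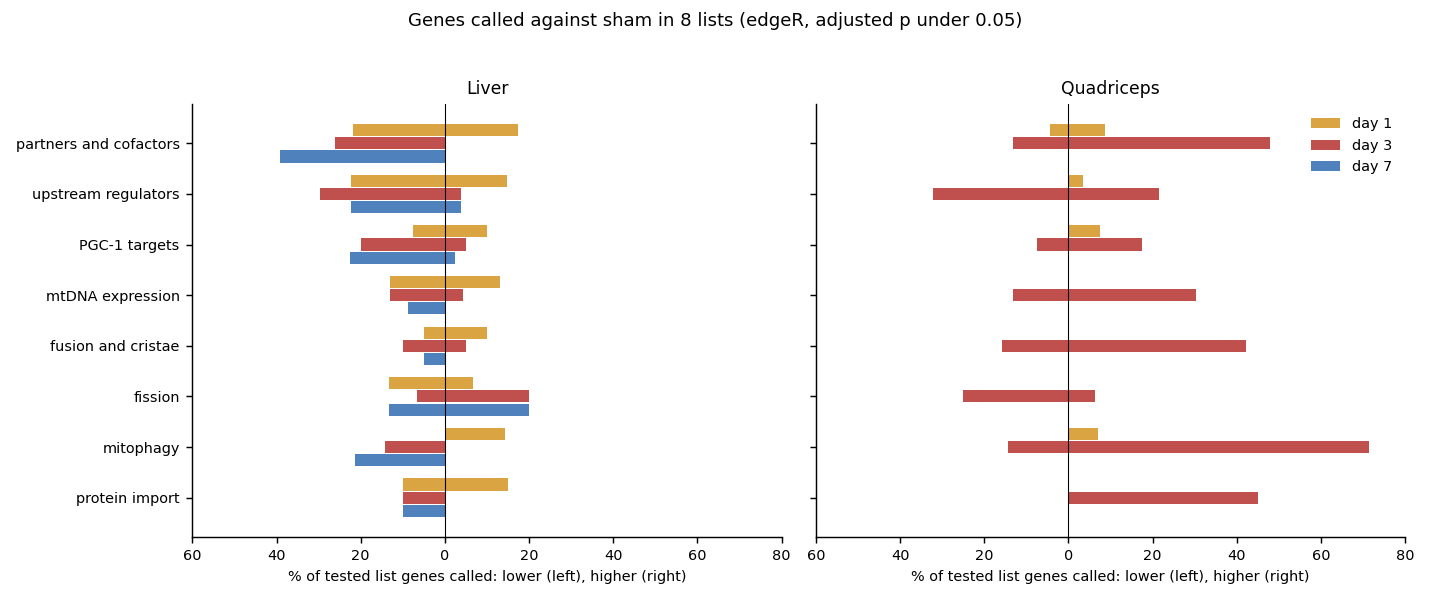
Share of the tested genes of each list called higher (right of 0) or lower (left of 0) than sham by edgeR, in liver and quadriceps at days 1, 3 and 7. In quadriceps nearly all calls fall at day 3, with 10 of 14 mitophagy genes higher, while liver calls after day 1 lie mostly on the lower side outside the fission list.

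The authors' deposited table carries their own fold changes and FDR for each day against sham. By the deposited FDR at 0.05, 3, 5 and 3 of the 10 genes were called in liver at days 1, 3 and 7 and 1, 4 and 0 in quadriceps. In liver, the authors' deposited table called Mfn2 on all 3 days (here at day 1 alone), at -0.96 (FDR 0.000464), -0.71 (FDR 0.0106) and -0.73 (FDR 0.0110), and called Ppargc1b at day 3, -1.46 (FDR 0.0297), and Opa1 at day 1, -0.43 (FDR 0.0201), which were not called here. In quadriceps, the authors' deposited table called Ppargc1b at day 1, -1.49 (FDR 0.0483), and Mfn1 at day 3, 0.70 (FDR 0.0138), and did not call Tfam at day 3, -0.41 (FDR 0.0964). No gene called by the authors' deposited table and here had opposite signs.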

How the data were processed

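Total RNA of 36 libraries, 18 livers and 18 quadriceps, was analysed from the raw read counts per gene that the authors deposited. Per the submitters' processing notes, FastQC 0.11.5, STAR 2.7.10a, featureCounts, Subread 2.0.3, edgeR 3.40.2 and build mm10 were used. The strand setting is not given in the sources used here, so reads of a gene and of an antisense partner cannot be told apart. The log2 fold changes and FDR values (adjusted p-values) that the authors deposited are quoted by that name only. A further 36 per-sample columns of the deposited table were not used.

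Here, edgeR 4.0.16 (R 4.3.3) filtered low counts (filterByExpr), scaled libraries by TMM and fitted robust quasi-likelihood models per tissue over its 18 libraries, with Benjamini-Hochberg adjustment over the 13879 liver or 13601 quadriceps genes tested and a threshold of 0.05. All 10 genes passed the filter in both tissues. The difference between tissues used 36 libraries and the 12780 genes tested in both, scaled within tissue, and the sham tissue comparison all 14702 genes. DESeq2 1.42.0, other scaling, no filter, other sets of libraries, marker covariates and a replicate block were alternatives. Correlations used log2 CPM with a prior count of 2. Fold changes of genes not called are printed where the unadjusted p was under 0.2, with 1 exception, Ppargc1b between tissues at day 3.

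All 10 genes are named, called or not. Of each pathway list and tissue, at most 4 genes with the smallest unadjusted p against sham were eligible to be named, and of the genes most like Ppargc1a the 4 with the highest r. The genes, lists and comparisons were chosen with earlier results of these data known. The labels do not say whether libraries are separate animals, so p-values measure the spread between these libraries.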

Additional observations from a re-analysis of the deposited data

Results flagged for a closer look

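In 9 of 60 groups of 5 libraries, 1 library lay far from the other 4 of its group by Dixon's criterion. Chance alone meets this criterion in about 5% of groups if the values are independent and normally distributed. The 60 groups here are CPM of 10 genes in the same libraries, so their share cannot be read against that 5%. Ppargc1a stood out in 3 of them. It was 132.7 CPM in liver day 1 replicate 3, where the other 4 had 10.2 to 31.3 CPM, 108.1 CPM in liver day 3 replicate 2, where the others had 53.7 to 65.5 CPM, and 341.0 CPM in quadriceps day 1 replicate 5, where the others had 43.1 to 69.1 CPM.

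Liver day 7 replicate 4 was high in both Mfn2, at 122.9 CPM with 63.9 to 74.03 CPM in the others, and Ppargc1b, at 22.1 CPM with 7.46 to 11.6 CPM in the others. Esrra was 14.1 CPM in liver day 3 replicate 2, with 9.02 to 10.3 CPM in the others, and 10.8 CPM in quadriceps day 7 replicate 5, with 17.4 to 19.5 CPM in the others. Nrf1 was 8.20 CPM in liver day 3 replicate 5, below the 10.2 to 10.9 CPM of the others, and Mfn1 was 213.7 CPM in quadriceps day 1 replicate 3, above their 136 to 155 CPM.

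The liver response to PHx minus the quadriceps response differed from 0 for 7 gene and day pairs. At day 1 it was -1.13 log2 for Mfn2 and -0.57 for Opa1. At day 3 it was 2.11 for Ppargc1a, 1.24 for Esrra, -2.63 for Esrrg and -0.58 for Nrf1, and at day 7 it was -2.94 for Esrrg. The libraries that decide these calls are named with the tissue comparison above.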

How the results depend on the processing

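Of 30 calls among the 10 genes, 12 held in every setting tried and 15 with any 1 library of the groups compared left out. Of 1371 values under alternatives, 1219 kept their direction and their side of the threshold, 104 lost a call, 45 gained one and 3 reversed: Ppargc1a in liver at day 7 was -0.088 with the muscle-fibre covariate and 0.79 without it, and without quadriceps day 1 replicate 5 Ppargc1a was -0.11 in quadriceps at day 1 against sham (range over omissions -0.11 to 1.09) and 0.11 between days 7 and 1 (range -1.09 to 0.11). None of the 3 was called. Of 958 values of pathway genes named, 80 lost their call and 0 reversed.

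The number of the 10 genes called moved as follows, with 0.05 as the threshold. In liver at day 1 (2 called) it was 5 by DESeq2, 4 without day 1 replicates 1 and 2, 0 without replicates 4 and 5, and 1 with the muscle-fibre covariate or with the groups compared alone. At day 3 (3 called) it was 0 with the muscle-fibre covariate and 5 with the groups compared alone, and at day 7 (2 called) 1 with that covariate. Between days 3 and 1 (1 called) it was 2 by DESeq2 or without day 1 replicates 1 and 2, and 0 without replicates 4 and 5, with the groups compared alone or with the replicate block. Between days 7 and 1 (1 called) it was 2 without replicates 1 and 2, and 0 without replicates 4 and 5, with no filter, with the groups alone or with the replicate block. The liver minus quadriceps count at day 1 (2) was 1 with the groups alone or with the replicate block, and at day 7 (1) it was 0 with the groups alone. In quadriceps it was 1 at day 1 with the groups alone or the slow-fibre covariate, and 2 between days 7 and 1 by DESeq2. Leaving out 1 library gave 1 to 5, 1 to 4 and 1 to 3 in liver at days 1, 3 and 7, 0 to 3 between days 3 and 1, 0 to 3 between days 7 and 1 and 0 to 0 between days 7 and 3. In quadriceps it gave 0 to 0, 3 to 5 and 0 to 0 at days 1, 3 and 7, 3 to 4 between days 3 and 1, 2 to 4 between days 7 and 3 and 0 to 3 between days 7 and 1. For the tissue difference it gave 0 to 2, 1 to 4 and 0 to 2 at days 1, 3 and 7, and 3 to 5 between sham tissues. The cause of these moves was not tested. Leaving out liver day 1 replicates 1 and 2 or 4 and 5 and the slow-fibre covariate were chosen after seeing the data.

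The labels do not say that a replicate number marks an animal or batch. Same-numbered libraries deviated together (r above 0.1) in 6 of 24 liver pairs, 3 of 24 quadriceps pairs and 10 of 18 liver with quadriceps pairs. The median r of the liver with quadriceps pairs was 0.105, against -0.020 for other numbers. Not every pair passed 0.1, so pairing was left out of the main tests. Whether same-numbered livers and muscles share an animal is not known. With the replicate number as a block, 76 of 82 values kept their side of the threshold and none reversed. Lost were Esrra in liver between days 3 and 1 (adjusted p = 0.0592) and days 7 and 1 (0.0640), Opa1 (0.0733) and Nrf1 (0.0951) between tissues at days 1 and 3, and Tfam in quadriceps at day 3 (0.0822), and Mfn1 in quadriceps at day 3 was gained (0.86, adjusted p = 0.0282). Depth limits Esrrb most, with counts per library under 50 in all sham livers and quadriceps.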

Other observations

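Some further differences among the 10 genes had an unadjusted p under 0.05 without passing the adjusted threshold. Between days in liver, Ppargc1b had a log2 difference of -1.33 ± 0.49 between days 3 and 1 (adjusted p = 0.0563) and Ppargc1a of -1.13 ± 0.49 between days 7 and 3 (adjusted p = 0.294), where all day 7 livers lay below all day 3 livers. The Ppargc1b difference passed the test without day 1 replicate 1 or 3 or day 3 replicate 1 (adjusted p = 0.0136 to 0.0229 with log2 fold changes of -1.55 to -1.76). In quadriceps, Mfn1 differed by -0.56 ± 0.25 between days 7 and 3 (adjusted p = 0.0898), and passed without day 7 replicate 3 (adjusted p = 0.00705 with a log2 fold change of -0.84).

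Between tissues, the response of Esrrb in liver minus that in quadriceps was -2.60 ± 1.07 at day 1 (adjusted p = 0.109) and -2.59 ± 1.05 at day 7 (adjusted p = 0.122), on few reads. For Mfn2 it was -0.72 ± 0.32 at day 3 (adjusted p = 0.0697) and -0.78 ± 0.32 at day 7 (adjusted p = 0.128), and the day 7 value was called without liver day 7 replicate 4 (adjusted p = 0.0379 with a log2 fold change of -0.97).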
